A study of Mus musculus with 2 samples.

Results

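Type I interferons are cytokines that cells release on sensing viral nucleic acid, while interferon gamma comes mainly from activated lymphocytes. Type I interferons act through the receptor chains Ifnar1 and Ifnar2 and interferon gamma through Ifngr1 and Ifngr2, and receptor-bound kinases then activate STAT proteins, which with interferon regulatory factors (IRFs) switch on antiviral genes. Endothelial cells carry these receptors and respond to both types. The genes described here are those whose symbol belongs to the interferon name families, namely the receptor chains, Irf genes and Stat2, and the Ifi, Ifit, Ifitm, Isg, Oas, Mx, Gbp and immunity-related GTPase genes with Ifih1, Usp18, Rsad2, Bst2 and Zbp1. They were chosen by name and not by signal, and amount to 67 genes of 18193 on the array, carried by 93 probe sets. Probe sets annotated to several genes were left out, which removed 11 that include such a name.

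The study profiled the lung vasculature of C57BL/6J mice that had undergone pneumonectomy, the removal of the left lung, which is followed by growth of the right lobes. The 2 groups are old mice and young mice, with 1 one-colour Affymetrix array each, and in both the vascular cells were flow-sorted from the right lobes left after surgery. The labels used here name neither exact ages, time after surgery, sorting markers nor the number of mice pooled, and unoperated mice were not analysed here. With 1 array per age there is no replicate check and no test, so values are given for both arrays with the ratio of old over young, and genes were counted by a 2-fold rule.

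Signals are MAS5 intensities after scaling of the arrays to a median log2 ratio of 0, and signals under a floor of 73.7 units, the higher array median, were treated as unmeasured. Where 1 array lies under the floor the fold is a lower bound. On both arrays all 10 pan-endothelial markers were above the floor, 4 of them past 2-fold toward the old sample, led by Tek (5.91-fold), 1 toward the young (Emcn, 2.17-fold) and 5 within 2-fold, among them Pecam1 with 6049 units in old and 6239 in young cells. Of 9 lung capillary markers, 3 (Car4, Fibin, Tbx3) stayed under the floor in both samples, Gpihbp1 (35.7-fold) and Sema3c (at least 5.89-fold) were higher in old and Ednrb (8.83-fold) in young cells, and 3 lay within 2-fold. For 6 lung epithelial markers the sums were close, at 424 units in old and 415 in young cells, and Sftpc, Sftpa1 and Scgb1a1 were under the floor in both. Markers of most other cells differed. For 4 B cell markers the sums were 368 units in old and 67.8 in young cells, with all 4 under the floor in young cells. The summed signal of 8 liver sinusoidal endothelial markers was 165905 units in old and 12677.5 in young cells, that of 10 macrophage and Kupffer cell markers 25151 and 373, and that of 10 pan-leukocyte markers 15138 and 1927. For 6 hepatocyte markers the sums were 13780 units in old and 95.4 in young cells, for 6 fibroblast markers 22511 and 251, for 6 pericyte and smooth muscle markers 23257 and 368, for 5 mesothelial markers 8458 and 50.6, and for 4 neutrophil markers 2070 and 52.1. The lymphatic endothelial markers went the other way, with 5 of 7 past 2-fold toward the young sample, among them Prox1 at 60.6 units in old and 6885 in young cells, and with Flt4 and Lyve1 within 2-fold. In RNA of a sorted population, more cells of a type and more RNA per cell cannot be told apart. The 2 samples thus differ both in age and in these markers, mostly liver sinusoidal in old and lymphatic in young cells. Every ratio below holds both differences, and 1 array per age cannot separate them. The source is given as lung, and the origin of the liver-type markers was not tested.

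Interferon genes had mostly higher signal in old cells. Of the 67 genes, 38 were past 2-fold toward the old sample and 2 toward the young, 20 lay within 2-fold, and 7 were below the floor on both arrays. Of the 60 genes above the floor on at least 1 array, 63.3% were thus past 2-fold toward the old sample and 3.33% toward the young, whereas among all 12105 such genes 16.0% were higher in old and 11.3% in young cells. With bounds left out, 24 of 41 interferon genes (58.5%) were higher in old and 1 (2.44%) in young cells, against 11.7% and 10.6% of all 10004 genes with a signal above the floor in each sample. The median log2 ratio was 1.37 for the 60 interferon genes and 0.03 for all genes, and with bounds left out 1.24 and -0.02. The leukocyte, macrophage, neutrophil, liver sinusoidal, hepatocyte, fibroblast, pericyte and mesothelial markers given above mostly differed in the same direction as most of these genes, the lymphatic markers mostly in the opposite one, and the part of these cells in the ratios was not tested.

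**Figure D1:**
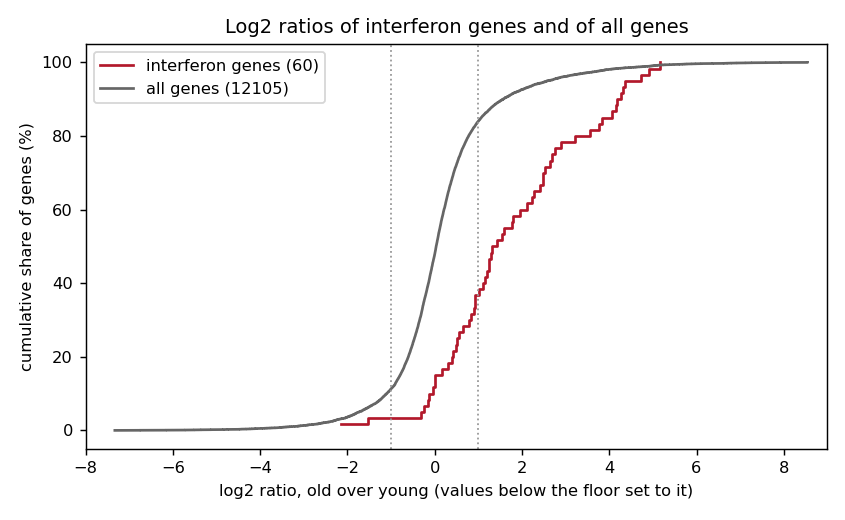
Cumulative share of genes (vertical axis, percent) by log2 ratio of old over young (horizontal axis) for the 60 interferon genes and all 12105 genes counted with bounds included. Dotted lines mark 2-fold. The interferon curve lies to the right of the curve of all genes, with medians of 1.37 and 0.03.

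The receptor chains differed little. Ifnar1, a chain of the type I receptor, had 860 units in old and 1019 in young cells, a log2 ratio of -0.24. Its partner Ifnar2 had 3867 units in old and 1741 in young cells, a 2.22-fold difference that its probe sets did not share, since the other two had log2 ratios of -0.09 and 0.13. Ifngr1, the ligand-binding chain of the interferon gamma receptor, stood at 1435 units in old and 751 in young cells, and Ifngr2, its signalling chain, at 1477 and 1513. Over the 4 receptor genes, 1 was therefore past 2-fold, and that one only by its brightest probe set.

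The IRF family divided into a strongly different and a little different group. Irf1, a transcription factor that is itself induced by interferon gamma, reached 11874 units in old cells, against 613 in young cells, a 19.4-fold difference. Irf8, a factor of macrophage and dendritic cell development, had 3970 units in old and 194 in young cells (20.4-fold), and its second probe set also differed, with a log2 ratio of 4.07. Irf7, the amplifier of type I interferon production, had 2274 units in old and 245 in young cells (9.27-fold). These 3 genes had ranks 73, 70 and 181 among the 10004 genes ordered by ratio toward the old array.

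The other factors lay close to or within 2-fold. Irf2, which competes with Irf1 for DNA, had 2661 units in old and 1312 in young cells (2.03-fold), just past the 2-fold rule and under it on the deposited values, with quantile normalization and with the offset (log2 ratios of 0.89 on the deposited and 0.95 on the quantile-normalized values). Irf9 and Stat2, parts of the transcription complex activated by type I interferon, had 1744 and 355 units in old cells, against 1300 and 187 in young cells. Irf3, which is activated by phosphorylation rather than induction, had 2831 units in old and 2027 in young cells, but its 4 probe sets spread from -1.47 to 0.48 in log2 ratio. For Irf5 the brightest probe set gave 178 units in old and 176 in young cells, while the other gave 191 and 31.4, with 31.4 under the floor. Irf4, a factor of lymphocytes and plasma cells, was below the floor on both arrays with 37.6 and 30.8 units.

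**Figure D2:**
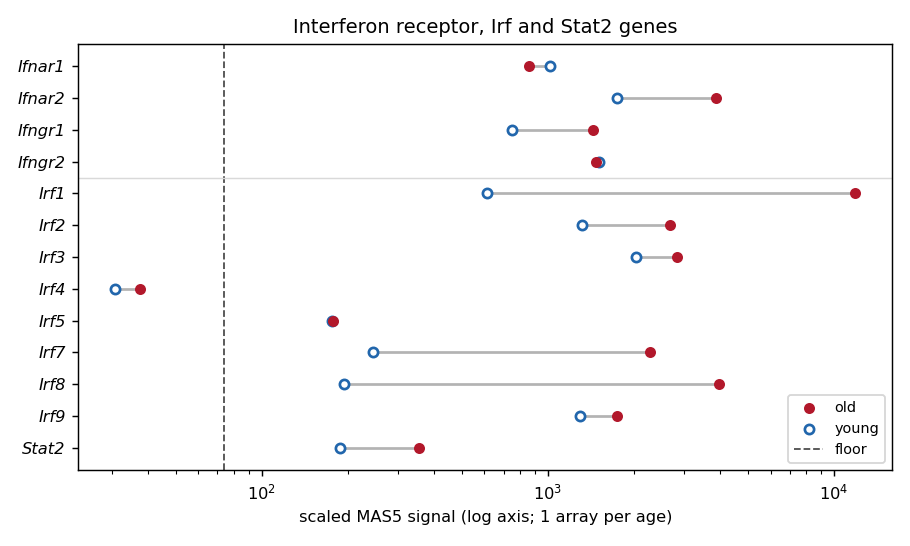
Scaled signal (log axis) of the receptor, Irf and Stat2 genes, with filled points for the old and open points for the young array and the floor of 73.7 units as a dashed line. Irf1, Irf7 and Irf8 show the widest separation, and the points of Ifngr2 and Irf5 nearly coincide.

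The promoters of Irf1 and Irf8 hold letters of the type bound by STAT proteins (TTCNNNGAA, which reads the same way on both strands), and these are shown because both genes lead the regulators. Sequences are from the RefSeq-derived table of build GRCm38.p6, in the direction of the gene, within the 250 bases upstream of an annotated start, and capitals mark the motif.
Irf1 (chr11:53769898-53769957, plus strand): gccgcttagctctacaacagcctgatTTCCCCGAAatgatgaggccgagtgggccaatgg
Irf8 (chr8:120736179-120736238, plus strand): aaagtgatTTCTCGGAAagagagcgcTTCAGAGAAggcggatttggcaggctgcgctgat
The match of Irf1 begins 90 bases before the annotated start, and Irf8 has 2 matches. Irf7, the next regulator by ratio, had no match of these letters upstream. Both genes have a further annotated start with no match upstream. The same letters were found in 7.02% of all 32851 promoters of this length.

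Immunity-related GTPases, which act on membranes around intracellular pathogens and are mainly induced by interferon gamma, held the largest ratios measured on both arrays. Ifi47 had 4307 units in old and 121 in young cells (35.7-fold), and rank 31 of 10004 genes toward the old array. Iigp1 had 15789 units in old and 524 in young cells (30.1-fold), and its other probe set had 8593 and 225. Igtp differed 6.28-fold, with 4128 units in old and 657 in young cells, and Irgm2 2.69-fold, with 2419 and 898. Irgm1, a regulator of the other GTPases of the family, was within 2-fold at 3018 units in old and 1614 in young cells. The family thus spread from 0.90 to 5.16 in log2 ratio, with 4 of its 5 genes past 2-fold.

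Igtp and Irgm2 are adjacent genes in the RefSeq order of assembly GRCm38.p6, and their upstream windows were identical at 58 of 60 bases. They are shown because each holds a STAT-type motif followed closely by the core of the interferon-stimulated response element (GAAA, any 2 bases, GAAA, or its reverse complement), with both motifs in capitals.
Igtp (chr11:58199485-58199544, plus strand): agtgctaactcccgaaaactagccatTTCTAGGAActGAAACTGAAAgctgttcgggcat
Irgm2 (chr11:58214876-58214935, plus strand): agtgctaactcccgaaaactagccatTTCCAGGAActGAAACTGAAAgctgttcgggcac
With these near-identical windows, Igtp differed 6.28-fold and Irgm2 2.69-fold.

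Guanylate-binding proteins, large GTPases that coat pathogens and their vacuoles, were past 2-fold toward the old sample for 5 of 6 genes. Gbp7 had 6627 units in old and 885 in young cells (7.49-fold), Gbp3 2171 and 322 (6.73-fold), and Gbp2 3464 and 621 (5.57-fold). Gbp2b had 415 units in old cells and 29.9, under the floor, in young cells, a difference of at least 5.63-fold. Gbp7, Gbp3, Gbp2b and Gbp2 follow each other without an intervening protein-coding gene, and the log2 ratios of the 3 measured in both samples were 2.90, 2.75 and 2.48, beside the bound for Gbp2b. Gbp8 and Gbp6 lie near each other on chromosome 5. Gbp8 had 221 units in old and 20.1 in young cells, a log2 ratio of at least 1.58, and Gbp6 was within 2-fold on both of its probe sets, with 1177 units in old and 827 in young cells for the brighter.

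Each of the 4 neighbouring Gbp genes holds the response element core in its upstream window. The windows are shown because all 4 genes were past 2-fold toward the old sample, and capitals mark the core, here on the reverse strand.
Gbp7 (chr3:142530258-142530317, plus strand): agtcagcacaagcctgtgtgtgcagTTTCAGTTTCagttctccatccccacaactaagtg
Gbp3 (chr3:142559980-142560039, plus strand): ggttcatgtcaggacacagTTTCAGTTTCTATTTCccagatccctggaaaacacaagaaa
Gbp2b (chr3:142594685-142594744, plus strand): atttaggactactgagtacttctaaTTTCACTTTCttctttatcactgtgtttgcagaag
Gbp2 (chr3:142620579-142620638, plus strand): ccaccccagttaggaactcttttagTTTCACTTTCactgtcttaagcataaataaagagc
In Gbp3 a pair of overlapping matches begins 45 and 39 bases before the annotated start, in Gbp7 the match begins 53, in Gbp2 59 and in Gbp2b 137 bases before it. Gbp3 has a further annotated start with no match of the core upstream.

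The Ifi200 family encodes nuclear and cytosolic DNA-binding proteins, several of them sensors of DNA that are abundant in myeloid cells. All 6 genes were past 2-fold toward the old sample, 5 of them against a young signal below the floor. Ifi204 had 1476 units in old and 7.02 in young cells, a log2 ratio of at least 4.32. Ifi207 had 1239 and 0.895 units (at least 16.8-fold) and Ifi213 1043 and 28.0 (at least 14.2-fold) in old and young cells. The other probe set of Ifi213 had 174 units in old and 12.8 in young cells, a log2 ratio of at least 1.24. Ifi202b, which is known to be weakly expressed in C57BL/6 mice, had 252 units in old and 2.90 in young cells, by a probe set of the kind that can match several transcripts (at least 3.42-fold). Ifi209 had 171 units in old and 21.3 in young cells (at least 2.31-fold), and its other probe set gave a bound under 2-fold. Ifi203, the only member above the floor on both arrays, had 162 units in old and 75.4 in young cells, just above the floor.

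These genes lie in a single run on chromosome 1, and the markers of myeloid cells differed in the same direction. All 10 macrophage and Kupffer cell markers were past 2-fold toward the old sample, and 8 of them were below the floor in young cells, where the receptor gene Csf1r had 75.6 units and Clec4f, C1qa and Vsig4 had 22.4, 3.07 and 5.22. The leukocyte gene Ptprc, encoding CD45, had 1403 units in old and 0.840 in young cells. The part of these cells in the ratios of the Ifi200 genes, Irf8 and Ifi30 was not tested. Without the 6 Ifi200 genes, a choice made after the data had been seen, 32 interferon genes were higher in old and 2 in young cells, with a median log2 ratio of 1.31. All 6 were themselves higher in old cells, so these counts were fixed by subtraction and do not test the part of myeloid cells. The shares over all genes were 16.0% toward the old sample and 11.3% toward the young.

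The upstream windows of Ifi207, Ifi203 and Ifi213 hold the response element core with the same letters inside it, and are shown for that reason, with the core in capitals.
Ifi213 (chr1:173599311-173599370, minus strand): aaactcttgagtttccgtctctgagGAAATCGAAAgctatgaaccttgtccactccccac
Ifi207 (chr1:173741816-173741875, minus strand): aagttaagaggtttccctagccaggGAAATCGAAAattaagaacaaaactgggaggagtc
Ifi203 (chr1:173942493-173942552, minus strand): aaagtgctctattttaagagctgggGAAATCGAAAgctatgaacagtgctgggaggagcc
A further annotated start of Ifi203 had no match of the core upstream. The ratio of Ifi207 was at least 16.8-fold and that of Ifi203 2.14-fold, so these genes with the shared core did not share a size of difference. For Ifi213 the size depended on the probe set, at least 14.2-fold by the brighter and a log2 ratio of at least 1.24 by the other.

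IFIT proteins bind foreign RNA and block its translation, and their genes went different ways. Ifit3 had 3593 units in old and 678 in young cells (5.30-fold), and Ifit2 7478 and 1532 (4.88-fold). Ifit1 was within 2-fold, with 2358 units in old and 1496 in young cells. Ifit1bl1, an Ifit1-like gene, was at least 4.42-fold higher in young cells, with 47.3 units in old and 326 in young cells, and was the interferon gene with the largest ratio toward the young. Ifit1bl2 was near the floor, with 83.4 units in old and 43.3 in young cells.

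These 5 genes are close neighbours on chromosome 19, and the core of the response element was found upstream of genes that differed in opposite directions. The windows show it upstream of Ifit3 (higher in old cells), Ifit1 (within 2-fold) and Ifit1bl1 (higher in young cells), in capitals on the reverse strand.
Ifit3 (chr19:34583382-34583441, plus strand): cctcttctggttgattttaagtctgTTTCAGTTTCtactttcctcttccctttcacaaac
Ifit1 (chr19:34640779-34640838, plus strand): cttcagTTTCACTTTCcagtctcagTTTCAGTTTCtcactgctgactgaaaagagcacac
Ifit1bl1 (chr19:34599428-34599487, minus strand): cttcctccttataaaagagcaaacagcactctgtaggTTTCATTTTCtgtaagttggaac
Ifit1bl1 has a further annotated start whose window also holds the core, and Ifit2 had no match of the core upstream of its 2 annotated starts, though 1 of them holds the STAT-type letters.

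IFITM proteins sit in cell membranes and limit the entry of enveloped viruses. Ifitm3 and Ifitm2 were high on both arrays, at 32153 and 30481 units in old and 12907 and 10461 in young cells, ratios of 2.49-fold and 2.91-fold. Ifitm1 had 1312 units in old cells and 25.5, under the floor, in young cells (at least 17.8-fold). Ifitm5, which is known from bone, and Ifitm6, known from myeloid cells, had 318 and 174 units in old cells, against 20.6 and 30.0, both under the floor, in young cells. Ifitm10 was within 2-fold at 483 units in old and 326 in young cells, and Ifitm7 was below the floor on both. The 5 genes past 2-fold are direct neighbours in one run on chromosome 7, while Ifitm10 and Ifitm7 lie elsewhere.

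Oligoadenylate synthetases make a second messenger that activates RNA degradation when they bind viral RNA. Of 10 genes, 4 were past 2-fold toward the old sample, 3 lay within 2-fold and 3 were below the floor on both. Oas1a, an active mouse Oas1 gene, had 3046 units in old and 259 in young cells (11.8-fold). Oasl2 had 1324 units in old and 10.5 in young cells (at least 18.0-fold), and its neighbour Oasl1 261 and 111 (2.36-fold). Oas1b, whose protein is truncated in C57BL/6 mice, had 286 units in old cells and 58.3, under the floor, in young cells (at least 3.88-fold). Oas2 had 132 units in old and 26.8 in young cells, a bound of 1.79-fold.

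Within the Oas1 run on chromosome 5, the large ratio was that of Oas1a. Oas1c had 122 units in old and 99.5 in young cells, Oas1e 67.1 and 81.6, and Oas1f, Oas1h and Oas3 were below the floor on both. The window of Oas1a is shown with its overlapping cores in capitals, the nearer of which begins 14 bases before the annotated start.
Oas1a (chr5:120907526-120907585, minus strand): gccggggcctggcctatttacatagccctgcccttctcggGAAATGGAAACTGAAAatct
A core was also found upstream of Oas1c and Oas3.

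**Figure D3:**
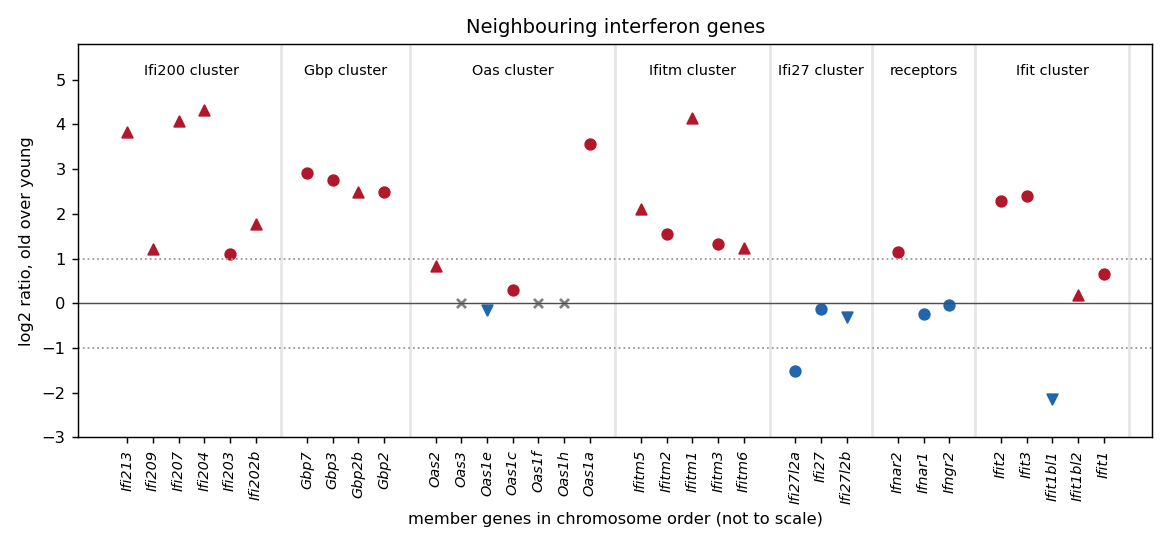
Log2 ratio of old over young (vertical axis) for interferon genes in their chromosome order, for the 7 runs of at least 3 members with at most 10 protein-coding genes between neighbours. Circles are measured on both arrays, triangles are bounds, and crosses at 0 mark genes below the floor on both. All members of the Ifi200, Gbp and Ifitm runs lie above the upper 2-fold line, the Ifit and Oas runs are mixed, and all 3 Ifi27 genes lie below 0.

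Among the remaining effectors, Ifi30, a lysosomal thiol reductase of antigen processing, had 2776 units in old and 106 in young cells (26.3-fold). Rsad2, which encodes the antiviral enzyme viperin, had 7884 units in old and 578 in young cells (13.6-fold), and its 3 probe sets ranged from 3.11 to 4.17 in log2 ratio. Isg20, an exonuclease, had 703 and 123 units (5.73-fold), and Ifih1, the cytosolic RNA sensor MDA5, 2416 and 517 (4.67-fold) in old and young cells. Mx2, of the Mx GTPase family, had 478 units in old cells and 33.4, under the floor, in young cells (at least 6.48-fold). Mx1, which is disrupted in C57BL/6 mice, was below the floor on both arrays with 57.7 and 20.5 units. Zbp1, a sensor of Z-form nucleic acid, had 255 units in old and 51.8 in young cells (at least 3.47-fold), and Ifi35 8946 and 3645 (2.45-fold). Ifi44l was below the floor on both arrays.

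Several effectors showed little difference. Bst2, the virus-tethering protein tetherin, had 11554 units in old and 6717 in young cells (1.72-fold). Usp18, a negative regulator that removes the ubiquitin-like ISG15 and blocks the type I receptor, had 1448 and 1106 units (1.31-fold) in old and young cells. Isg20l2, a nucleolar exonuclease, had 1061 and 1056. The Ifi27 genes, which encode small hydrophobic proteins, were the one family with no gene past 2-fold toward the old sample. Ifi27l2a had 692 units in old and 1987 in young cells, a 2.87-fold difference toward the young, and Ifi27 had 4740 and 5163. Ifi27l2b, by a probe set that can match several transcripts, had 51.1 units in old cells, under the floor, and 91.7 in young cells.

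**Figure D4:**
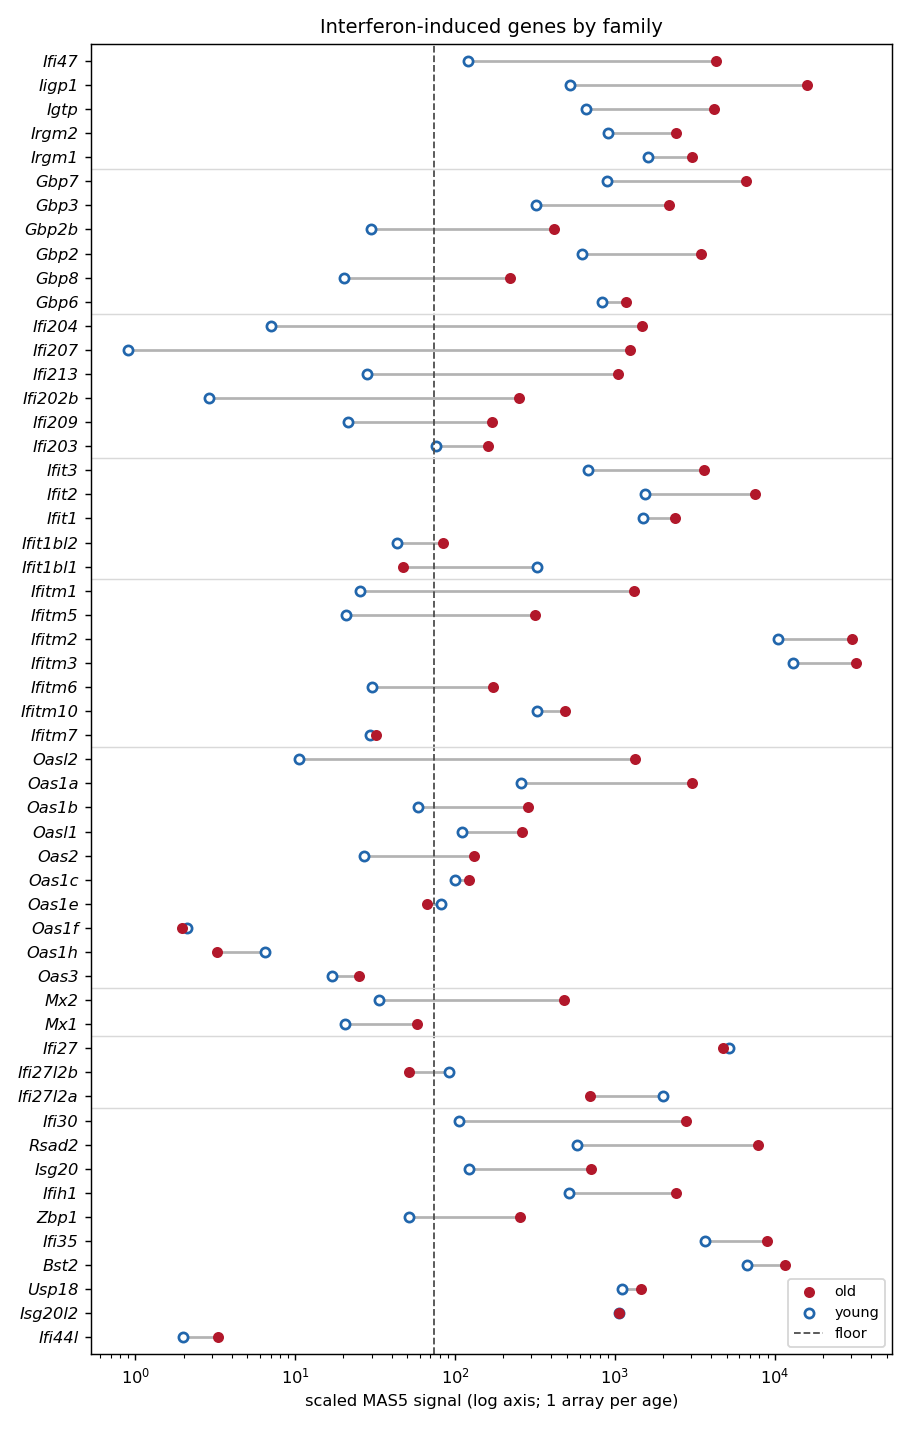
Scaled signal (log axis) of 54 interferon-induced genes, grouped by family between grey lines in the order GTPases, Gbp, Ifi200, Ifit, Ifitm, Oas, Mx, Ifi27 and others, with filled points for the old and open points for the young array and the floor of 73.7 units as a dashed line. Filled points lie to the right for most genes, and the order is turned round for Ifit1bl1, the 3 Ifi27 genes, Oas1e and, with both signals under the floor, Oas1f and Oas1h.

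Promoter entries were found for 53 of the 67 genes. The response element core was present, on either strand, in the windows of 22 of these 53 genes (41.5%) and of 936 of all 27025 genes with an entry (3.46%). Among interferon genes the share did not follow the ratio, with 14 of 32 genes higher in old cells (43.8%) and 6 of 14 genes within 2-fold (42.9%) holding the core. Of the genes within 2-fold, Ifit1 and Ifit1bl2 hold the same stretch of DNA, read from opposite strands. Of the genes higher in old cells, Igtp and Irgm2 have near-identical windows. The comparison therefore rests on few independent windows. The STAT-type letters were found for 12 of 32 genes higher in old cells (37.5%) and 1 of 14 within 2-fold (7.14%), against 8.13% of all genes. The 12 were Irf1, Irf2, Irf8, Ifnar2, Igtp, Irgm2, Gbp7, Ifi202b, Ifit2, Ifitm6, Oas1a and Isg20. Among them, Ifnar2, Irf2 and Isg20 fell within 2-fold in at least 1 alternative processing, and the windows of Igtp and Irgm2 are near-identical. The contrast with the genes within 2-fold therefore rests on few genes and partly on unsteady calls. In 6 genes both motifs were present, and in Bst2 they overlapped. Neither motif was found for Ifi47, Ifi30, Oasl2, Ifitm1 and Irf7, which had log2 ratios toward old of 5.16, 4.72, at least 4.17, at least 4.15 and 3.21. Windows are printed above only for genes with a match. These shares describe letters in windows, and occupancy was not measured.

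Genes of the pathway outside the name families were counted by the same rule in 6 lists. The counts are to be read beside the shares of all genes, 16.0% past 2-fold toward the old sample and 11.3% toward the young. Of 12 ligand and further receptor genes on the array, 9 were below the floor on both arrays, among them Ifnb1 (15.0 and 36.4 units in old and young cells), Ifng (44.9 and 1.53) and all 7 interferon alpha genes on the array. Il10rb, which is shared by the receptors of interleukin-10 and of type III interferon, had 4716 units in old and 1380 in young cells (3.42-fold).

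Of 14 kinases, further STATs and inhibitors, 5 were past 2-fold toward the old sample and 0 toward the young. The feedback inhibitors stood out in size, with Socs3 at 16176 units in old and 619 in young cells (26.1-fold) and Socs1 at 373 and 6.55 (at least 5.06-fold). The receptor kinases Jak1 and Jak2 were 3.48-fold and 2.68-fold higher in old cells, and the phosphatase gene Ptpn6 2.96-fold. Of 12 measured nucleic acid sensing genes, 3 were higher in old cells, 1 in young cells and 8 within 2-fold. Their median log2 ratio was 0.22, against 0.03 for all genes. The largest ratios toward old were those of Unc93b1 (4.81-fold), a carrier of Toll-like receptors, and Cgas (4.49-fold), a sensor of cytosolic DNA. Ikbke, a kinase that activates IRF proteins, was 13.1-fold higher in young cells, with 79.4 units in old and 1041 in young cells.

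Interferon-induced chemokines and surface proteins were higher in old cells for 8 of 10 genes. Cxcl10 and Cxcl9, ligands of a lymphocyte chemokine receptor, had 17896 and 2589 units in old cells, against 64.9 and 21.1 in young cells, both under the floor. Cd274, which encodes the inhibitory ligand PD-L1, was 16.5-fold higher in old cells. The next list holds antigen presentation genes and some other genes induced by interferon gamma. All 13 measured genes were past 2-fold toward the old sample, from B2m at 2.17-fold to the immunoproteasome subunits Psmb9 (23.7-fold) and Psmb8, which had 4859 units in old and 147 in young cells. Nlrc5, a transactivator of several of these genes and itself in the list, was 8.11-fold higher in old cells. Ciita, Ido1, Nos2 and Acod1 of this list were below the floor on both arrays.

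Further antiviral effectors were less uniform, with 25 of 45 measured genes higher in old and 3 in young cells. Parp14 (17.1-fold), Rtp4 (14.1-fold) and Casp4 (9.49-fold) led toward the old array together with Sp100 (at least 15.2-fold). The 3 genes toward the young array were all Schlafen genes, namely Slfn2 with 468 units in old and 4921 in young cells (10.5-fold), Slfn3 (at least 6.38-fold) and Slfn5 (2.37-fold). Slfn8 of the same family was at least 2.45-fold higher in old cells. Slfn3, Slfn5, Slfn8 and B2m were picked out after their values had been seen. Over all 6 lists, 55 of 97 measured genes were past 2-fold toward the old sample and 4 toward the young, beside 16.0% and 11.3% of all genes.

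**Figure D5:**
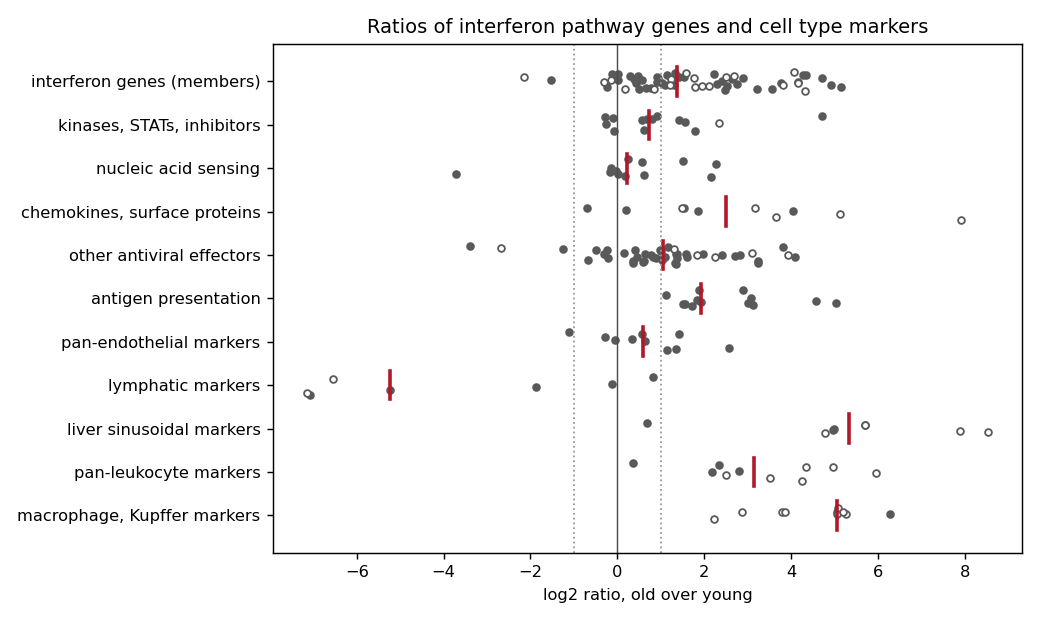
Log2 ratio of old over young (horizontal axis) for genes above the floor on at least 1 array, by list, with filled points for genes measured on both arrays, open points for bounds, red bars for list medians and dotted lines at 2-fold. The median of the interferon genes was 1.37, that of the antigen presentation list 1.93, and those of the macrophage, liver sinusoidal and lymphatic markers 5.06, 5.34 and -5.23.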

How the data were processed

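The authors deposited MAS5 intensity values per probe set on a linear scale, made with GCOS 1.4 and MAS5 according to the submitters' processing notes. With 2% trimmed from either end, each array averaged 500.003. No probe-level data or detection calls were used here, and the number of arrays limits the precision. Of 45101 probe sets, 64 controls were left out. Genes were named from the platform annotation of 2016, in which 34945 of the remaining probe sets had 1 symbol, 932 several and 9160 none; all 93 interferon probe sets matched RefSeq by Entrez identifier, with 0 symbols changed.

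Arrays were scaled to a median log2 ratio of 0 over probe sets above both array medians (-0.13 before scaling). The floor was the higher scaled median, and of several probe sets for a gene the one brightest on average (log2) was used. Named genes were all receptor, Irf and Stat genes, the 20 with the largest ratio toward old, all past 2-fold toward young, and up to 5 per pathway list; others are named to account for every member. Members and lists were chosen with earlier results of these data known. The 8 alternatives were other scalings, floors, probe set rules and an offset of 0.5 floors added before log2. The scaling and the 2-fold rule were run on simulated data with large changes set into bright probe sets only and little noise. That run says nothing about bounds at the floor, genes near 2-fold or the spread between mice. The build behind the array annotation is not given in the sources used here, so RefSeq (GRCm38.p6) served for names, gene order and promoters only. Software was pandas 2.3.3, statsmodels 0.14.6, numpy 2.4.6 and matplotlib 3.10.9 under Python 3.11.15.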

Additional observations from a re-analysis of the deposited data

How the results depend on the processing

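No paired analysis was possible because each age has 1 array. Across the 8 alternatives, between 26 (higher floor, which leaves 40 interferon genes measured) and 40 (lower floor, 64 measured) interferon genes were past 2-fold toward the old sample, and their median log2 ratio lay between 1.25 and 1.52. These counts are 65.0% with the higher and 62.5% with the lower floor, beside 12.5% and 18.7% of all genes. The lowest interferon share was 55.2%, with the offset, beside 12.7% of all genes. On the young side the count was 1 with the higher floor, under which Ifit1bl1 was unmeasured, and 3 without shared-sequence probe sets, where Irf3 was added at -1.47. In these settings 40 and 49 interferon genes were measured, with 2.50% and 6.12% higher in young cells, beside 7.68% and 11.5% of all genes. Of 31 named genes with a ratio, 22 kept their direction and their side of the 2-fold rule in every alternative that gave a value. The other 9 were Ifnar1, Ifnar2, Ifngr1, Ifngr2, Irf2, Irf3, Irf5, Isg20 and Stat2. Irf5 was at 1.31 and Ifnar2 at 0.40 in log2 ratio over all probe sets, Ifngr1 and Stat2 at 1.01 and 1.03 with lowess, and Isg20 at 0.53 with the higher floor. Among the named genes, no 2-fold call turned to the other direction. Bounds such as those of Ifi204, Ifi207, Ifi213, Ifitm1 and Oasl2 move with the floor by construction: Ifi204 was at 6.18 with the lower and 1.59 with the higher floor. Ifi213 also moved with the probe set rule, from 3.82 to 2.53 over all probe sets. With 1 array per age, none of these values measures the spread between mice.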

Other observations

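Of the 11 probe sets annotated to several genes with an interferon name among them, 8 were past 2-fold toward the old sample, 0 in young cells, and 3 were below the floor on both. The log2 ratios of the 8 ran from 1.20 to 6.43. Among all genes with a probe set of 1 symbol, 16.0% were past 2-fold toward the old sample and 11.3% toward the young. No such share was computed for probe sets of several genes. The 11 probe sets are given by number only, since the annotation does not say which of the genes each one measures.

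Plasmacytoid dendritic, T and natural killer cells also make or respond to interferon. Their markers were mostly under the floor in young cells and partly above it in old cells. Of 5 plasmacytoid dendritic cell markers, Siglech, Ccr9 and Pacsin1 had signals under the floor in both samples, Cox6a2 was 2.98-fold higher in old cells, and Klk1 had 249 units in old and 269 in young cells. All 9 T and natural killer cell markers on the array were under the floor in young cells, and their summed signal was 1702 units in old and 141 in young cells. In old cells Gzma, a protease of cytotoxic cells, had 905 units, Nkg7 201 and Klrd1 200.3, and these 3 were past 2-fold. Cd3d, Cd3e and Cd3g were above the floor in old cells with bounds under 2-fold, and Cd4, Cd8a and Ncr1 were under it in both samples.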
